A study of Mus musculus with 6 samples.

Results

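The miR-297, miR-466, miR-467 and miR-669 families are rodent microRNAs (miRNAs) whose sequences are rich in simple repeats. They were taken as every miRNA probe whose reporter name begins with mmu-miR-297, mmu-miR-466, mmu-miR-467 or mmu-miR-669 followed by a letter or a hyphen, which gave 71 of the 1963 miRNA probes on the array. Of the 71 members, 4 belonged to miR-297, 27 to miR-466, 13 to miR-467 and 27 to miR-669. Lung RNA came from 6 adult C57Bl6 mice, 1 mouse per array. The 3 untreated WT mice received saline, and the 3 WT-BLM mice received intratracheal bleomycin (BLM, an antitumour drug that causes lung fibrosis in mice) at 1.5 U/kg body weight. Lungs of both groups were taken at day 21.

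A miRNA is cut from a hairpin precursor, and the mature strand from the left or the right side of the hairpin is called the 5p or the 3p arm. Bases 2 to 8 of the mature strand, the seed, do most of the pairing with target mRNAs. Most genes of these families lie in an intron of Sfmbt2, an imprinted gene that encodes a Polycomb-type protein and is known for its role in the placenta, where copies of the same hairpin have multiplied in rodents.

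The gene table of RefSeq (GRCm38.p6) listed 81 miRNA genes of these names. Of these, 71 lay inside Sfmbt2 on chromosome 2, where no miRNA gene of another family was listed, and 10 lay elsewhere. By name, 58 members matched genes found inside Sfmbt2 alone, and miR-466f, miR-466f-5p and miR-466f-3p matched genes inside it as well as Mir466f-4 on chromosome 13. A further 9 members matched no gene inside Sfmbt2, and 1, miR-466a-5p, was not matched. The set is therefore not a Sfmbt2 cluster alone. The 9 members include miR-466i-5p and miR-466i-3p, from a gene inside Cdk13 on chromosome 13, miR-466q, from chr3:28419988-28420007 on the plus strand inside Tnik, and miR-669n, from chr3:115979905-115979924 on the plus strand inside Slc30a7. Both positions are in GRCm38.p6 and come from an exact match of the member to the RefSeq mature sequence, which was found for 8 members.

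The members fall into classes by sequence. Of the 71, 29 held the motif UGUGUG and 26 held ACACAC, both searched on the miRNA strand only, and no probe held both. The first group had 24 names ending in 5p and 5 with no arm, and the second had 21 names ending in 3p and 5 with no arm. Among all 1963 probes, 2.9% held UGUGUG and 1.88% held ACACAC, against 40.8% and 36.6% of the members. The sequences of 8 members with UGUGUG that were detected on at least 3 arrays are shown 5′ to 3′ with the seed in capitals, as the array annotation gives them, since 12 of the 18 members detected this often are of this kind.
miR-466i-5p: uGUGUGUGugugugugugug
miR-669n: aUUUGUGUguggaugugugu
miR-669c-5p: aUAGUUGUguguggaugugugu
miR-669f-5p: aGUUGUGUgugcaugugcaugugu
miR-669l-5p: aGUUGUGUgugcauguauaugu
miR-669a-5p: aGUUGUGUgugcauguucaugucu
miR-466c-5p: uGAUGUGUgugugcauguacauau
miR-466b-5p: uGAUGUGUguguacauguacau

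The 6 members with ACACAC that were detected on at least 3 arrays are shown in the same way, because they varied between the mice in another way than the first group.
miR-466f-3p: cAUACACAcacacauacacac
miR-669a-3p: aCAUAACAuacacacacacguau
miR-669p-3p: cAUAACAUacacacacacacguau
miR-669c-3p: uACACACAcacacacaaguaaa
miR-466h-3p: uACGCACGcacacacacac
miR-466q: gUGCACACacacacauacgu

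The members are 19 to 25 bases long and resemble each other closely. They carry 42 different seeds, and 44 members share their seed with another member. By edit distance (substitutions, insertions and deletions over the whole sequence), 24 members lay within 1 edit of another member, 46 within 2 and 62 within 4. Of the 71 probes, 7 stand for more than 1 mature name, so that the families cover 80 names. Probes this similar may capture each other's miRNA, which was not tested, and their signals are not independent measurements.

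A miRNA counted as detected in a mouse if the 2 spots of its probe, averaged, were brighter than the median empty spot by over 3 SD, the SD being that of the 800 empty spots of that array. This limit lay 42.9, 54.4 and 178 intensity units above the empty median for untreated WT mice 1, 2 and 3, and 135.7, 45.1 and 24.0 units above it for WT-BLM mice 1, 2 and 3. The empty spots were noisiest in WT mouse 3 (SD 59.3) and WT-BLM mouse 1 (SD 45.2). All 6 miRNAs taken as markers of lung cells, among them miR-126a-3p (endothelium) and miR-200c-3p (epithelium), were detected on all 6 arrays. Of the 4 markers of other tissues, miR-122-5p (liver) and miR-124-3p (neurons) were each detected on 1 array, miR-208a-3p (heart) on 3 and miR-1a-3p (muscle) on all 6.

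Of the 71 members, 18 (25.4%) were detected on at least 3 of the 6 arrays, against 14.0% of all 1963 probes. On no array were 39 members (54.9%) detected, against 74.5% of all probes. On all 6 arrays, 1 member was detected, miR-466i-5p. The families thus had a larger detected share than the array as a whole, but most members stayed under the limit. When a mouse was left out, detection on 3 arrays was still required, so that counts could only stay or fall. Without WT mouse 1 or without WT-BLM mouse 3, 11 members passed, 15.5% of them, against 12.3% or 11.97% of all probes. Another imprinted miRNA group of the mouse, the Dlk1-Dio3 miRNAs, had 3 of 112 probes (2.68%) detected on at least 3 arrays, and the 5p arms of miR-6896 to miR-7093 had 9 of 200 (4.50%).

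Counted by family, detection on at least 3 arrays was reached by 9 of 27 miR-466 members and by 9 of 27 miR-669 members, and by none of the 13 miR-467 and none of the 4 miR-297 members. Against the 14.0% of all probes, the last 2 counts are too small to set these families apart, and no difference between families was tested. Of the miR-467 members, 6 were detected on 1 or 2 arrays, and of the miR-297 members none was detected on any array. The members with genes inside Sfmbt2 alone were detected in 12 of 58 cases, those with genes elsewhere in 3 of 9 and the 3 miR-466f members in 3 of 3.

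By arm, 10 of 30 members named 5p (33.3%), 5 of 29 named 3p (17.2%) and 3 of 12 with no arm were detected on at least 3 arrays. By sequence, 12 of 29 members with UGUGUG, 6 of 26 with ACACAC and 0 of 16 with neither motif were detected. Without WT mouse 1, WT mouse 2 or WT-BLM mouse 3, 2 members named 3p passed in place of 5. Other miRNAs with the same motifs passed in 7 of 28 cases for UGUGUG and in 3 of 11 for ACACAC. These shares, over few probes, were also above the 14.0% of all probes. Of 24 hairpin names with both arms on the array, both arms were detected for 3 (miR-466f, miR-669a and miR-669c), the 5p arm alone for 5 (miR-466b, miR-466i, miR-466m, miR-669f and miR-669l), the 3p arm alone for 1 (miR-466h) and neither arm for 15.

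Some members passed together with others of their seed. The 3 members with the seed GUUGUGU, miR-669a-5p, miR-669f-5p and miR-669l-5p, all passed, and so did both members with the seed GAUGUGU, miR-466b-5p and miR-466c-5p. Other shared seeds were split: 1 of 3 members passed with GUGUGCA, 1 of 3 with GUGUGUG and 1 of 2 with CAUAACA. The largest group, 7 members with the seed UAUACAU, had none that passed, where the share of all probes is 14.0%. These groups are small and were not tested. Of the 7, 3 are shown with the seed in capitals, of which miR-467b-3p and miR-467d-3p were each detected on 2 arrays.
miR-467b-3p: aUAUACAUacacacaccaacac
miR-467d-3p: aUAUACAUacacacaccuacac
miR-669l-3p: aUAUACAUacacacccauauau

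Taking mice 1, 2 and 3 of each group in order, 20, 23 and 3 members were detected in untreated WT and 4, 14 and 29 in WT-BLM lungs. Over all probes the numbers were 327, 270 and 132 without BLM and 176, 348 and 365 after BLM. The 2 arrays with noisy empty spots detected the fewest members, and on both of them the members' share was below that of all probes, whereas on the other 4 arrays it was above it. When the SD of the empty spots was replaced by a robust SD, which a few bright empty spots do not inflate, 46 members (64.8%) and 29.0% of all probes passed. The number of members called detected therefore rests on the limit, while their share exceeded that of all probes under both limits.

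**Figure D1:**
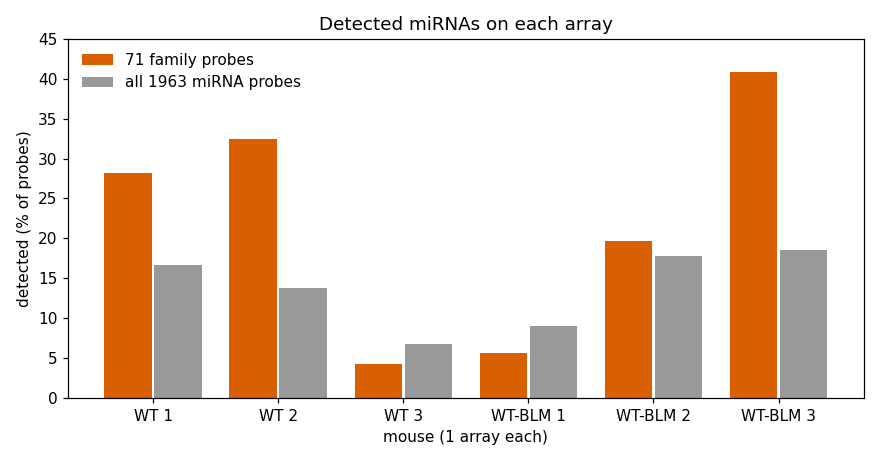
Percentage of probes detected on each array, for the 71 members of the miR-297, miR-466, miR-467 and miR-669 families and for all 1963 miRNA probes. Bars are single arrays, 1 mouse each. The members' share ran from 4.22% in WT mouse 3 to 40.8% in WT-BLM mouse 3.

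Arms were detected unevenly across the mice. The 30 members named 5p gave 12, 8 and 2 detected probes without BLM and 3, 10 and 14 after BLM. The 29 members named 3p gave 5, 11 and 1 without BLM and 0, 2 and 10 after BLM. More 5p than 3p members were detected in every mouse but WT mouse 2. Of the 9 members with ACACAC detected on only 1 or 2 arrays, 7 were detected in exactly WT mouse 2 and WT-BLM mouse 3, among them miR-466i-3p, miR-467b-3p and miR-467d-3p. Of all 226 probes detected on 1 or 2 arrays, 8 (3.54%) had this pair, the 7 members included. WT-BLM mouse 3 had the lowest limit and the most detected probes.

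Signals are given next as intensity above the empty-spot median of the same array, for mice 1, 2 and 3 of each group in that order. Brightness differs between probes for the same amount of RNA, so that the values are compared between mice and not between miRNAs. miR-466i-5p, a plain U and G repeat, gave 2604, 711 and 318 in WT lungs and 1441, 1636 and 1145 in WT-BLM lungs. All untreated WT values but the first were below the WT-BLM values, and the groups overlapped. In WT mouse 2 its 2 spots gave 219 and 1202, a difference of more than 1 on the log2 scale, so that this value rests on spots that disagree.

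The closely related pair miR-669n and miR-669c-5p, 2 edits apart and from genes on chromosomes 3 and 2, gave nearly the same pattern. miR-669n gave 532, 298 and 25.9 in WT lungs and 225, 261 and 202 in WT-BLM lungs. miR-669c-5p gave 476, 260 and 1.95 in WT lungs and 204, 225 and 171 in WT-BLM lungs. In both, WT mouse 1 was the highest and WT mouse 3 the lowest, and the WT-BLM mice lay between them.

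The 3 members with the seed GUUGUGU had the same highest and lowest mouse. miR-669f-5p gave 232, 201 and -11.0 in WT lungs and 126.98, 126.4 and 112 in WT-BLM lungs. miR-669l-5p gave 138, 114 and 1.19 in WT lungs and 92.3, 94.4 and 80.5 in WT-BLM lungs. miR-669a-5p gave 146, 59.7 and -0.325 in WT lungs and 57.3, 75.6 and 52.3 in WT-BLM lungs. A negative value means that the probe was dimmer than the median empty spot. WT mouse 3 showed no signal above the empty spots or hardly any for these 3 miRNAs, and WT mouse 1 the highest.

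The remaining members named 5p and miR-466f had the same extremes in most cases. miR-466m-5p gave 209, 114 and 20.5 in WT lungs and 121, 169 and 109 in WT-BLM lungs. miR-466c-5p gave 187, 124.1 and -5.39 in WT lungs and 145.1, 146 and 93.9 in WT-BLM lungs. miR-669o-5p gave 159, 94.8 and 18 in WT lungs and 77.4, 86.9 and 72.9 in WT-BLM lungs. In WT mouse 3 its spots disagreed, at 52.3 and -16.3. For these 3, the WT-BLM values again lay inside the range of the untreated WT values. miR-466f-5p gave 45.1, 31.5 and 9.5 in WT lungs and 41.4, 60.7 and 35.6 in WT-BLM lungs. miR-466b-5p gave 46.9, 17.8 and -13.0 in WT lungs and 30.8, 46.5 and 40.1 in WT-BLM lungs. miR-466f gave 45.4, 41.5 and -19.5 in WT lungs and 27.2, 45.3 and 28.9 in WT-BLM lungs. Of these, miR-466f-5p was highest in WT-BLM mouse 2. Among the members with UGUGUG detected on at least 3 arrays, it was the 1 for which WT mouse 1 was not the highest.

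The members with ACACAC that were detected on at least 3 arrays were highest in another mouse. miR-466f-3p gave 133, 357 and 13.9 in WT lungs and 76.7, 65.3 and 168 in WT-BLM lungs. miR-669a-3p gave 81.1, 184 and 13.1 in WT lungs and 58.3, 66.8 and 91.8 in WT-BLM lungs. miR-669p-3p gave 69.6, 178 and 9.64 in WT lungs and 42.2, 32.4 and 108 in WT-BLM lungs. In all 3, WT mouse 2 was the highest and WT-BLM mouse 3 the second. miR-466h-3p gave 56.5, 159 and 1.58 in WT lungs and 48.8, 25.5 and 74.4 in WT-BLM lungs. miR-669c-3p gave 45.5, 113 and -9.61 in WT lungs and 35.04, 22.2 and 67.1 in WT-BLM lungs. miR-466q gave 47.9, 99.96 and 12.4 in WT lungs and 19.4, 15.4 and 48.3 in WT-BLM lungs. The order of the first 2 mice was the same in these 3 as well.

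**Figure D2:**
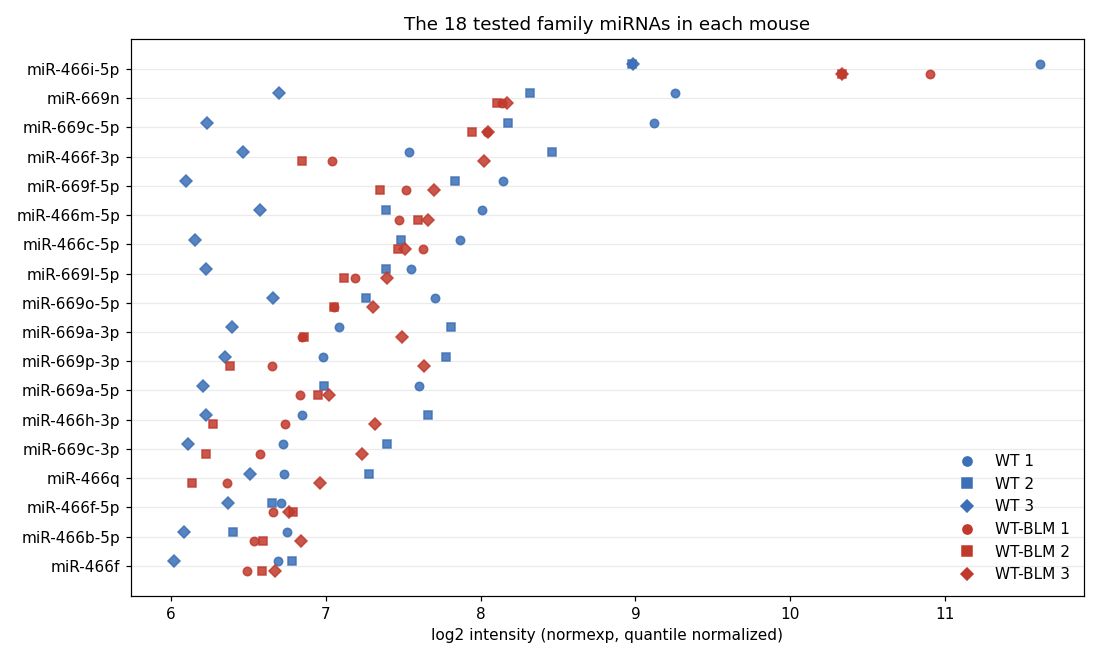
Log2 intensity of the 18 members detected on at least 3 of 6 arrays, after background correction and quantile normalization. Each point is 1 mouse (blue, untreated WT; red, WT-BLM) and the symbols tell the mice of a group apart. The groups overlapped for all 18 miRNAs, and WT mouse 3 (blue diamonds) was the lowest mouse for 16.

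Counted over the 18 members, the signal above the empty spots was highest in WT mouse 1 for 11 of the 12 with UGUGUG and highest in WT mouse 2 for 6 of the 6 with ACACAC. WT-BLM mouse 3 was second in all 6. WT mouse 3 was the lowest for 18 of 18. Over the 275 probes detected on at least 3 arrays, WT mouse 1 was highest for 43 (15.6%), WT mouse 2 for 64 (23.3%) and WT mouse 3 lowest for 184 (66.9%), and WT mouse 2 followed by WT-BLM mouse 3 was seen for 12, of which 6 were the members. On the normalized log2 scale, WT mouse 1 was highest for 9 of 12 members with UGUGUG (21.1% of all 275 probes), WT mouse 2 for 6 of 6 with ACACAC (14.2%) and WT mouse 3 lowest for 16 of 18 (42.5%). These counts describe members that share repeats and arrays and are not a test.

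The deviation of each miRNA from its own mean over the 6 mice sums up the pattern on the log2 scale. The median over the 12 members with UGUGUG was 0.55, 0.11 and -0.90 in WT lungs and 0.02, 0.03 and 0.14 in WT-BLM lungs. The median over the 6 members with ACACAC was 0.02, 0.77 and -0.62 in WT lungs and -0.27, -0.54 and 0.50 in WT-BLM lungs. The first median minus the second was 0.53, -0.66 and -0.28 in WT lungs and 0.29, 0.57 and -0.36 in WT-BLM lungs, so that both groups held positive and negative values. Over all 275 probes, the median deviation stayed between -0.15 and 0.12.

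**Figure D3:**
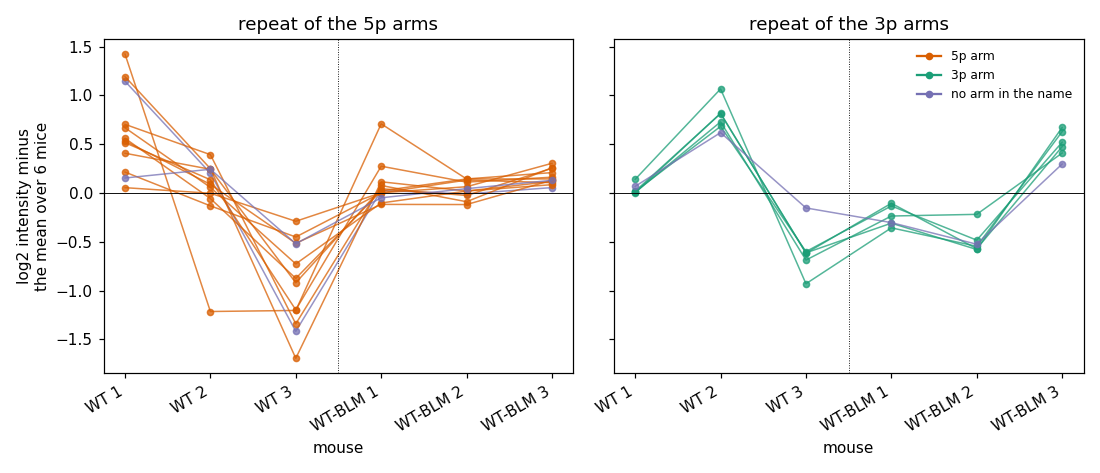
Log2 intensity of each detected member minus its own mean over 6 mice, for the 12 members with the repeat of the 5p arms (left) and the 6 with the repeat of the 3p arms (right). Each line joins the values of 1 miRNA, with no order among the mice, and the dotted line parts untreated WT from WT-BLM mice. WT mouse 2 is highest for all 6 miRNAs on the right and WT-BLM mouse 3 is high as well.

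Among other measures of the arrays, miR-1a-3p, a muscle miRNA, was highest in WT mouse 2, with 10416 above the empty spots, against 2329 in WT mouse 1, 491 in WT mouse 3, and 1192, 1121 and 775 after BLM. It was not high in WT-BLM mouse 3, where the tested members with ACACAC were second. The low values in WT mouse 3 came from the array with the noisiest empty spots, on which 39 of the 71 members were at or below the empty median. On that array the median signal of the 18 members was 5.72 above the empty spots, against 67.5 to 135 on the others, while the other 257 tested probes had a median of 148, against 244 to 367 on the others. The part of muscle RNA and of array noise in these patterns was not tested.

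The miRNAs outside the families with the longest runs of alternating U and G, 9 bases or more, were all detected on at least 3 arrays and are shown for comparison, again with the seed in capitals.
miR-574-5p: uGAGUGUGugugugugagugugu
miR-1187: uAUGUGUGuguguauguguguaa
miR-3082-5p: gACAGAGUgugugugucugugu
miR-32-3p: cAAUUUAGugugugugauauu

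Of these, miR-1187 has the seed AUGUGUG of 3 members (miR-466a-5p, miR-466e-5p and miR-466p-5p), of which 0 were detected on at least 3 arrays. miR-574-5p was at 404, 344 and 36.5 above the empty spots in WT mice 1, 2 and 3 and at 219, 383 and 187 in WT-BLM mice 1, 2 and 3. miR-3082-5p gave 439, 241 and -2.58 in WT lungs and 203, 290 and 211 in WT-BLM lungs. Both were highest in WT mouse 1 and lowest in WT mouse 3, as 11 of the 12 members with UGUGUG were. miR-32-3p, with 135.8, 75.8 and 17.9 in WT lungs and 86.7, 126.95 and 94.0 in WT-BLM lungs, had the same extremes. miR-1187 was highest in WT-BLM mouse 2, with 193, against 173 in WT mouse 1. Of the 7 tested miRNAs with UGUGUG outside the families, 4 were highest in WT mouse 1 and 6 lowest in WT mouse 3. Of the 3 tested with ACACAC outside the families, none was highest in WT mouse 2 by signal and 1 was on the normalized log2 scale.

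The comparison of WT-BLM with untreated WT asks which miRNAs differ in lungs injured by BLM. None of the 18 members tested passed the test of this difference. All of them were miR-466 or miR-669 members, since no miR-297 or miR-467 member was detected on enough arrays to be tested. In the fit of limma over the 275 probes detected on at least 3 arrays, 0 of 18 members had an unadjusted p under 0.05, against 1.82% of all probes, and none passed after Benjamini-Hochberg adjustment, against 0% of all probes. The groups did not overlap for 0 of the 18 members, against 4.73% of all probes. With 3 mice in each group, the smallest p that an exact two-sided permutation test allows is 0.10. In whole lung, fewer cells of a type and less RNA per cell cannot be told apart.

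The log2 fold changes of the members, as WT-BLM over WT with the standard error of limma, were small beside the spread between mice. The median over the 18 members was 0.06, against 0.04 over all 275 probes, and 11 were above 0 and 7 below. The highest was 0.66 ± 0.69 for miR-466i-5p and the lowest was -0.36 ± 0.31 for miR-466q, which had the smallest unadjusted p of limma, 0.293. Without WT mouse 3, the median over the members was -0.40, against -0.0073 over all probes, and 3 of 18 were above 0. When arrays were scaled to the 75th percentile in place of quantile normalization, the median over all probes was itself -0.22, the members' median was -0.29 and 1 of 18 was above 0. This scaling shifts all probes alike, so that its count above 0 does not bear on the members' direction. Their direction did change without WT mouse 3 and was thus not settled by these data.

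By arm, the 10 members named 5p had a median log2 fold change of 0.17, with 9 above 0, and the 5 named 3p a median of -0.13, with 0 above 0. Over all 275 probes, 155 (56.4%) were above 0. Without the detection filter, 18 of 30 members named 5p were above 0, with a median of 0.013. Of those named 3p, 3 of 29 were above 0 without it, with a median of -0.10. With 75th percentile scaling, 1 of the 10 members named 5p was above 0 and their median was -0.23, close to the all-probe median of -0.22 under that scaling. With cyclic loess normalization 5 of the 10 were above 0, with a median of 0.023. Without WT mouse 2, all 5 members named 3p were above 0, and their median was 0.25. Without WT-BLM mouse 2, all 5 were above 0 as well, with a median of 0.11. Without WT mouse 3, 3 of the 10 members named 5p were above 0 and their median was -0.20. The sign thus changed for either arm when single mice were left out.

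The 5 members with the smallest unadjusted p were miR-466q, miR-466b-5p, miR-466i-5p, miR-466c-5p and miR-466f-5p. Their log2 means ± SD over 3 mice were as follows. miR-466q had 6.84 ± 0.40 in untreated WT and 6.49 ± 0.43 in WT-BLM mice. miR-466b-5p had 6.41 ± 0.33 in untreated WT and 6.66 ± 0.16 in WT-BLM mice, a log2 fold change of 0.25 ± 0.25 (SE). miR-466i-5p had 9.86 ± 1.52 in untreated WT and 10.52 ± 0.33 in WT-BLM mice. Each of these differences was smaller than the SD of the untreated WT mice. miR-466c-5p had 7.17 ± 0.90 in untreated WT and 7.53 ± 0.08 in WT-BLM mice, a log2 fold change of 0.36 ± 0.43 (SE). miR-466f-5p had 6.58 ± 0.18 in untreated WT and 6.73 ± 0.07 in WT-BLM mice, a log2 fold change of 0.16 ± 0.21 (SE). With single mice left out, the log2 fold change ran from -0.59 to -0.13 for miR-466q, from 0.083 to 0.41 for miR-466b-5p and from 0.059 to 0.22 for miR-466f-5p. Adjusted p-values of limma with Benjamini-Hochberg adjustment were 1 for all 18 members.

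For miR-466i-5p the result moved with each untreated WT mouse. The log2 fold change was 0.20 without WT mouse 2 and 0.26 without WT mouse 3. Without WT mouse 1 it was 1.54, with an unadjusted p of 0.0011 and a Benjamini-Hochberg adjusted p of 0.304 in limma, and the 2 untreated WT mice left were at 8.98 and 8.99 on the log2 scale, against 10.33 to 10.90 in WT-BLM mice. One of these 2 values rests on the spots that disagree in WT mouse 2. Where spots that disagreed were left out, this miRNA had no value in WT mouse 2, and the 2 untreated WT mice left gave a log2 fold change of 0.22 (limma, unadjusted p 0.77). By the same rule miR-669o-5p lost its value in WT mouse 3, and its log2 fold change went from -0.070 to -0.35.

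**Figure D4:**
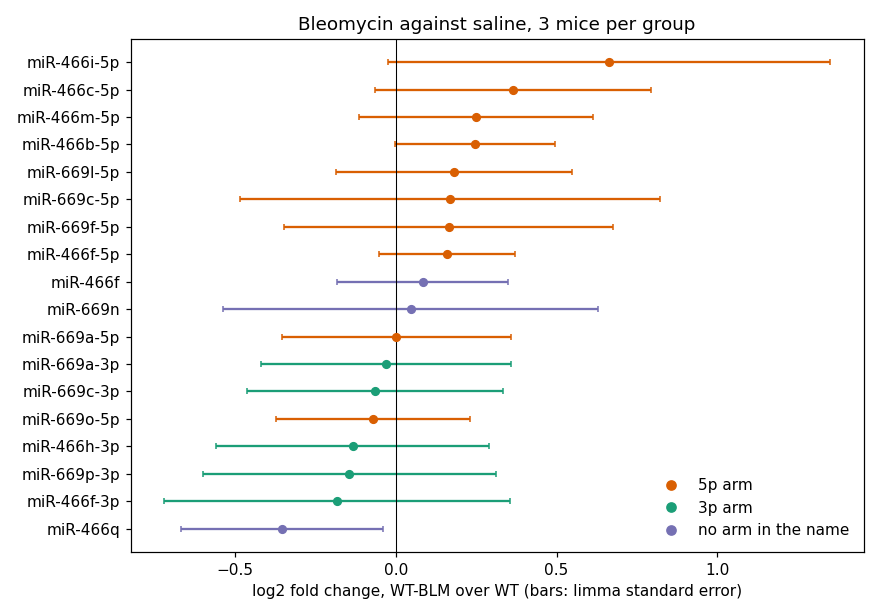
Log2 fold change of WT-BLM over untreated WT for the 18 members tested, 3 mice per group. Points are coloured by arm and bars are the standard error of limma. The values lay between -0.36 for miR-466q and 0.66 for miR-466i-5p, and none had an unadjusted p under 0.05.

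The members varied more among the untreated WT mice. The SD over the untreated WT mice was larger than that over the WT-BLM mice for 17 of 18 members, with a median of 0.72 against 0.15 on the log2 scale. The medians were 0.72 and 0.095 for the 12 members with UGUGUG, and 0.71 and 0.52 for the 6 with ACACAC, where the gap was smaller. Over all 275 probes it was larger for 183, with medians of 0.39 and 0.24. The untreated WT group holds the mouse in which the members were lowest and those in which they were highest, and the difference in spread was not tested.

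No member was detected in all 3 mice of one group and in none of the other. Detected in untreated WT mice alone were miR-467a-3p and miR-467a-5p, both in WT mouse 3, and miR-669e-3p in WT mouse 2, and in WT-BLM mice alone miR-467b-5p and miR-669e-5p, both in WT-BLM mouse 3. All 5 were detected on 1 array. The same counts were not made over all probes, so that they do not set the members apart from the array as a whole. miR-467a-3p was at 312 above the empty spots in WT mouse 3, where its spots gave 515 and 108, and at 15.3 to 49.5 in the other mice. miR-467a-5p was at 182 in WT mouse 3, where its spots gave 263 and 100.2, and at 13.1 to 16.9 in the other mice. Both arms of miR-467a were bright only on the array with noisy empty spots, and the spots of each disagreed. miR-669e-5p in WT-BLM mouse 3 gave 82.2 and 9.38 at its spots, and miR-669e-3p in WT mouse 2 gave 48.4 and 63.2, so that for each of them 1 of the 2 spots was under the limit of its array. miR-467b-5p was at 27.2 in WT-BLM mouse 3, where the limit was lowest, at 24.0. It was at 33.8 in WT-BLM mouse 2 and 27.6 in WT mouse 2, under the higher limits of those arrays.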

How the data were processed

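The deposited scanner values are the median intensity of every spot on 6 one-dye miRNA arrays, before background subtraction and normalization, together with the spread of intensity within the spot. The authors also deposited their normalized intensities, on a linear scale and rounded to whole numbers, as 1 value per probe, which were used as an alternative; how they were normalized is not given in the sources used here.

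The analysis used limma 3.58.1 under R 4.3.3. All 5022 spots entered a normexp background correction (offset 50). Quantile normalization was then applied to log2 values of the 3926 miRNA spots, without controls, and the pair of spots belonging to each probe was reduced to its mean. The offset shrinks the fold changes of dim probes. The 275 probes detected on at least 3 arrays entered lmFit and eBayes, and p-values were adjusted over all 275 by the Benjamini-Hochberg method. These steps were run on simulated arrays, with planted changes larger than those of the members and less spread between mice. That check therefore does not cover changes as small as the members'.

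Members and lists were chosen with earlier results of these data known. Named with values in every mouse are all members detected on at least 3 arrays, the 5 with the smallest unadjusted p, and miRNAs outside the families with the longest alternating runs of U and G; the 4 with runs of 9 or more are shown, since the fifth place was a tie. Arrays are 1 mouse each, and 3 mice per group limit the precision. Slides and scans are not named in the files, and no batch was fitted. A t-test, which the study used, was run as an alternative.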

Additional observations from a re-analysis of the deposited data

How the results depend on the processing

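Of 21 alternatives, 19 were planned and 2, leaving out both noisy arrays and leaving out spots that disagreed, were chosen after seeing the data. The robust SD and the limit on both spots were run for detection alone. None of the others gave a member an adjusted p under 0.05. In these, the count of members with an unadjusted p under 0.05 was 0 where all mice were kept, and 0 to 1 with a mouse left out. Members detected on at least 3 arrays were 46 with the robust SD, 23 of them 5p and 16 of them 3p. With a mouse left out, detection on 3 arrays was still required, so that counts could only stay or fall. Members then numbered 11 to 18, 5p members 8 to 10 and 3p members 2 to 5. The lowest counts came without WT mouse 1 or WT-BLM mouse 3 (3p also without WT mouse 2, 5p also without WT-BLM mouse 2). The median log2 fold change of the members was 0.66 when only probes detected on all 6 arrays were kept, which leaves miR-466i-5p alone, and -0.40 to 0.28 with a mouse left out. Without a filter it was -0.04 over 71 members, 27 above 0. Without both noisy arrays it was -0.33.

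Of 271 values for the 18 members, 40 in 16 members changed sign; miR-466i-5p and miR-466q kept theirs. The replicate block and the lack of a filter leave fold changes as they were and could change no sign. With 75th percentile scaling, which gave all probes a median of -0.22, so that values above this lay above the array as a whole, the log2 fold changes became -0.057 for miR-466c-5p, -0.094 for miR-466b-5p, -0.15 for miR-466m-5p, -0.20 for miR-466f-5p, -0.26 for miR-669c-5p, -0.26 for miR-466f, -0.27 for miR-669l-5p, -0.28 for miR-669f-5p, -0.31 for miR-669n and -0.39 for miR-669a-5p. With cyclic loess they became -0.022 for miR-669c-5p, -0.047 for miR-669l-5p, -0.056 for miR-669f-5p, -0.082 for miR-669n and -0.16 for miR-669a-5p. With no normalization between arrays they became -0.028 for miR-669n and -0.11 for miR-669a-5p, and with an offset of 16, 0.0023 for miR-669a-3p. With a mouse left out they ran from -0.66 to 0.62 for miR-669n, -0.65 to 0.79 for miR-669c-5p, -0.49 to 0.54 for miR-669f-5p, -0.25 to 0.42 for miR-669l-5p, -0.39 to 0.33 for miR-669a-5p, -0.15 to 0.70 for miR-466c-5p, -0.13 to 0.58 for miR-466m-5p, -0.17 to 0.23 for miR-466f, -0.37 to 0.17 for miR-669o-5p, -0.73 to 0.30 for miR-466f-3p, -0.41 to 0.32 for miR-669a-3p, -0.53 to 0.22 for miR-669p-3p, -0.51 to 0.23 for miR-466h-3p and -0.41 to 0.25 for miR-669c-3p. The cause of these changes was not tested.

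Mouse numbers are shared by both groups. With the mouse number as a replicate block, 0 members had an unadjusted p under 0.05, with a median log2 fold change of 0.06. The deviations of same-numbered mice correlated at 0.16, 0.03 and 0.07 over probes. No correlation of differently numbered mice was set against these. Whether same-numbered mice share more than a number was therefore not tested. The methods' t-test gave 0 members, and 9 of 275 probes when paired and 7 when unpaired, none after adjustment. Signal over the empty spots limits what can be seen of the members: a difference in a member near the empty level was not detectable.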
